A study of Mus musculus with 8 samples.

Results

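The genes described here are 38 genes of cell division and DNA replication, chosen by name from the gene table of a study of the posterior capsule of the mouse knee. All 38 were among the 16464 genes listed. Of these, 28 act in mitosis, and 10 (Mcm2 to Mcm7, Pcna, Tyms, Rrm2 and Cdc6) act in DNA replication. RNA was sequenced from the capsules of male wild type C57BL/6 mice. In the cast group (4 libraries) a cast had held the knee at an angle of 140 degrees for 2 weeks, from 8 weeks of age, and the naive group (4 libraries) had no cast. Both groups were 10 weeks old at collection. No label says which libraries came from separate mice or whether capsules were pooled, so p-values measure the spread between these libraries, which may be technical. The comparison asks how expression in the capsule differed after the joint had been kept from moving.

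Values are the authors' normalised read counts. Whole reads could be recovered from them, between 5956148 and 7381255 per cast library and between 6038095 and 6805349 in naive replicates 1 to 3. Naive replicate 4 held 1503880 reads, so that 1 read was worth 0.647 there and 0.133 to 0.165 elsewhere. Its levels correlated at 0.882 to 0.897 with the other naive libraries across genes, against 0.979 to 0.982 among those, as a description over genes that are not independent. A value of 0 in naive replicate 4 allowed a true level of up to 1.94, the worth of 3 reads, in counting error alone. Fibroblast markers of the capsule (Pdgfra, Pdgfrb, Col1a1, Col1a2, Dcn, Lum, Thy1 and Prg4) summed to 19251 to 25592 in cast and 16902 to 25441 in naive libraries, and 0 of these 8 markers was at 0 in any library.

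A cell that divides first copies its DNA in S phase and then separates the copies in mitosis. The Mcm proteins form the helicase ring that Cdc6 helps to load onto DNA before S phase, Pcna is the sliding clamp of the DNA polymerases, and Rrm2 and Tyms make DNA building blocks. Genes of mitosis are transcribed later in the cycle, and many of their products are destroyed as the cell divides, so their transcripts are widely used as marks of cycling cells. In adult connective tissue most cells rest outside the cycle, whereas blood cell precursors divide often. In bulk tissue, a lower level from fewer dividing cells and one from less RNA per dividing cell cannot be told apart.

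Promoters of mitosis genes are known for the cell cycle genes homology region (CHR), which DREAM and MuvB complexes bind, and for CCAAT boxes, which NF-Y binds. Those of replication genes are known for E2F sites. RefSeq (GRCm38.p6) gave a promoter for 32 members, 23 of mitosis and 9 of replication, from 250 bases before the start to 50 after it. The promoters of Kif20a, Mcm4, Aurkb, Ccna2, Foxm1 and Tpx2 were not used here. The following 120 bases upstream of the start show both kinds, with Kif23 as the mitosis gene whose level hardly differed between groups. They are written 5′ to 3′ on the strand of the gene, with matches to the CHR (TTTGAA or TTTAAA), the CCAAT box (CCAAT) and the E2F core (TTTCCCGC, TTTGGCGC, TTTCGCGC or TTTGCCGC) on either strand in capitals. The positions are chr11:99024190-99024309 (minus) for Top2a, chr7:122159315-122159434 (plus) for Plk1, chr19:37376262-37376381 (plus) for Kif11, chr9:61946800-61946919 (minus) for Kif23 and chr1:128359706-128359825 (minus) for Mcm6.
Top2a: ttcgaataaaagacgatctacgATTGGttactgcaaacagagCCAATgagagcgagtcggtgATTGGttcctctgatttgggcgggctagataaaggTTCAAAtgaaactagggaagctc
Plk1: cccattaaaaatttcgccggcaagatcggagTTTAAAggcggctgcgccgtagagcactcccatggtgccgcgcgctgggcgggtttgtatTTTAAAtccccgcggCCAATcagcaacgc
Kif11: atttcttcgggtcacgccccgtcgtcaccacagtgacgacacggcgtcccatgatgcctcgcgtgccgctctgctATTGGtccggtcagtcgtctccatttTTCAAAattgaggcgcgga
Kif23: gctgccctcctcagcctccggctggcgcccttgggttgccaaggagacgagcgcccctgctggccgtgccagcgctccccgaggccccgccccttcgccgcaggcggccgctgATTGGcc
Mcm6: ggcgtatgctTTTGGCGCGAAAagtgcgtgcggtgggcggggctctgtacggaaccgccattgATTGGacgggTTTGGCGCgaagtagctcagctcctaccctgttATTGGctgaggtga
In Top2a the CHR on the other strand (TTCAAA) lay at bases -23 to -18 and in Plk1 one CHR lay at -29 to -24, counted from the start. Mcm6 held 3 matches to the E2F core, of which those at -110 to -103 and -106 to -99 overlap, and no CHR in the window.

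Over the 300-base windows, a CHR was found in 21 of 23 mitosis promoters (91.3%) and 3 of 9 replication promoters (33.3%), against 27.8% of all 27025 promoters and 19.8% of those of tested genes. A CCAAT box was found in 21 of 23 mitosis promoters (91.3%) and also in 7 of 9 replication promoters (77.8%), against 37.9% of all promoters. A CHR together with a CCAAT box was found in 20 of 23 mitosis promoters (87.0%) and 3 of 9 replication promoters (33.3%), against 10.9% of all promoters. A match to the E2F core was found in 5 of 9 replication promoters (55.6%, Mcm3, Mcm5, Mcm6, Mcm7 and Cdc6) and in 2 of 23 mitosis promoters (8.70%, Cdk1 and Ncapg), against 2.32% of all promoters. Kif23 held both a CHR (bases 3 to 8 after the start) and a CCAAT box, whereas of the mitosis genes that rose Bub1 held no CHR, Birc5 no CCAAT box and Nusap1 neither in this window. These matches are letters in a window and no measure of binding.

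**Figure D1:**
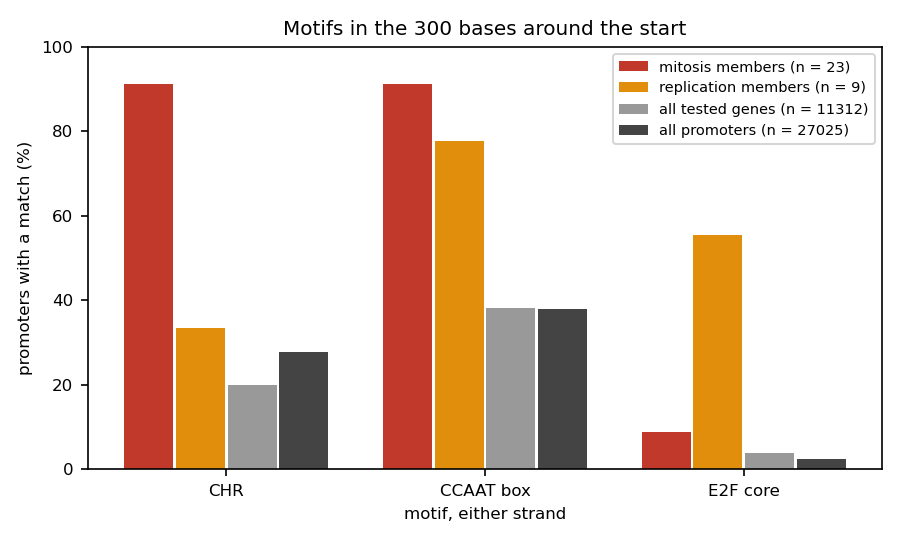
Share of promoters (%, vertical axis) with at least 1 match on either strand to each motif (horizontal axis), for mitosis members, replication members, all tested genes and all RefSeq promoters. The CHR bar is at 91.3% for mitosis members and 33.3% for replication members, and the E2F core bar is at 8.70% for mitosis members and 55.6% for replication members.

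Mitosis genes were higher in cast capsules as a group. Of 28 members tested, 18 rose, 0 fell and 10 did not pass the test (limma, adjusted p at most 0.05 over 15120 genes), against 6.51% of all genes tested that were higher and 5.46% that were lower. The fitted log2 fold change was above 0 in all 28, against 55.7% of all genes tested. Its median was 1.72 (range 0.03 to 2.53), against a median of 0.07 over all genes. As a ratio of group means the median member was 4.04-fold higher in cast libraries (range 1.01 to 5.57). In 11 of 28 members every cast library lay above every naive library, against 11.1% of all genes tested. Unless named otherwise, a log2 fold change is limma's, the cast mean less the naive mean of log2(value + 1), a scale that understates changes of low genes. Most mitosis genes were low, with 1543 to 4129 reads over the 28 members in a cast library and 78 to 1678 in a naive library.

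Mki67 (chromosome 7, 135689784 to 135716361, minus strand, GRCm38), which coats chromosomes in mitosis and is the common stain for proliferating cells, had normalised read counts of 198, 200.7, 133 and 53.1 in cast replicates 1 to 4, against 79.4, 36.9, 10.9 and 7.76 in naive replicates 1 to 4. It rose by 2.46 ± 0.69 on the log2 scale (SE, adjusted p = 0.0482). Top2a (chromosome 11, 98992943 to 99024189, minus strand), the topoisomerase that untangles sister DNA and whose promoter is printed above, had 42.0, 64.4, 65.4 and 24.8 in cast libraries, against 28.9, 12.6, 1.32 and 5.17 in naive libraries. Its log2 fold change was 2.42 ± 0.69 (adjusted p = 0.0490). In both genes cast replicates 1 to 3 were above all naive libraries, while cast replicate 4 was below naive replicate 1, so the groups overlapped.

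The cyclins of mitosis and their kinase rose together. Cdk1, the kinase that starts mitosis, had 10.1, 12.0, 11.3 and 3.601 in cast libraries, against 4.82, 2.26, 0.165 and 0 in naive libraries (log2 fold change 2.13 ± 0.58, adjusted p = 0.0420). Ccna2 (chromosome 3, 36564865 to 36572150, minus strand), cyclin A2 of S phase and early mitosis, had 20.8, 27.4, 22.8 and 10.8 in cast libraries, against 8.29, 5.81, 1.49 and 0 in naive libraries (log2 fold change 2.53 ± 0.64, adjusted p = 0.0317). Its groups did not overlap, and without naive replicate 4, where it was at 0, its log2 fold change was 1.92. Ccnb1, cyclin B1, averaged 9.33 ± 3.78 in cast and 1.67 ± 1.63 in naive libraries (SD, n = 4 each; adjusted p = 0.0244), and Ccnb2, cyclin B2, averaged 10.6 ± 3.69 in cast and 2.29 ± 2.17 in naive libraries (adjusted p = 0.0207). Foxm1, a transcription factor of mitosis genes, averaged 12.4 ± 4.84 in cast and 5.06 ± 2.14 in naive libraries and did not pass the test (adjusted p = 0.0830).

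Among the kinases that drive and check mitosis, Bub1b stood out by the spread of its replicates. Bub1b (chromosome 2, 118598211 to 118641591, plus strand), which encodes the checkpoint protein BubR1, had 16.2, 19.9, 20.7 and 12.0 in cast libraries, against 5.88, 4.36, 2.48 and 4.53 in naive libraries (log2 fold change 1.79 ± 0.27, adjusted p = 0.00352). The lowest cast library was above the highest naive library, and it passed in all 20 alternatives tried. Aurka (chromosome 2, 172356190 to 172370535, minus strand), the Aurora A kinase of the spindle poles, had 6.76, 7.19, 5.18 and 3.33 in cast libraries, against 1.96, 0.484, 2.15 and 0.647 in naive libraries (log2 fold change 1.56 ± 0.33, adjusted p = 0.0157), again without overlap. Bub1, the partner kinase of the same checkpoint, had 5.60, 6.14, 6.54 and 1.73 in cast libraries, against 2.26, 1.29, 0.165 and 0 in naive libraries, so cast replicate 4 was again below naive replicate 1 (adjusted p = 0.0394). Plk1, a kinase of entry into mitosis, averaged 7.77 ± 3.93 in cast and 2.29 ± 1.17 in naive libraries (adjusted p = 0.0491). Ttk, the checkpoint kinase Mps1, averaged 2.52 ± 1.05 in cast and 0.776 ± 0.717 in naive libraries and was not called (adjusted p = 0.0872).

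The chromosomal passenger complex, which corrects faulty attachments of chromosomes to the spindle, was represented by Aurkb, Birc5 and Cdca8, and all 3 rose with groups that did not overlap. Birc5, survivin, had 10.1, 9.14, 8.59 and 3.20 in cast libraries, against 3.01, 1.29, 0.661 and 0.647 in naive libraries (log2 fold change 1.87 ± 0.39, adjusted p = 0.0152). Aurkb, its kinase, averaged 6.03 ± 2.68 in cast and 1.74 ± 0.508 in naive libraries (adjusted p = 0.0324). Cdca8, borealin, averaged 5.69 ± 2.44 in cast and 1.55 ± 0.481 in naive libraries (adjusted p = 0.0202). In all 3, cast replicate 4 was the lowest cast library and naive replicate 1 the highest naive library. Cdc20, which activates the anaphase-promoting complex that ends mitosis, averaged 6.66 ± 2.69 in cast and 1.503 ± 1.03 in naive libraries (adjusted p = 0.0264). Ube2c, the ubiquitin-conjugating enzyme of that complex, averaged 6.65 ± 4.06 in cast and 1.88 ± 1.17 in naive libraries and was not called (adjusted p = 0.0962).

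Genes of the spindle, the kinetochore and chromosome shape were mixed in the test. Cenpe, a kinesin of the kinetochore, had 19.4, 19.2, 22.2 and 9.60 in cast libraries, against 7.23, 3.39, 2.81 and 0 in naive libraries (log2 fold change 2.38 ± 0.57, adjusted p = 0.0254). Kif4, a chromokinesin, Nusap1, a microtubule-binding protein, and Ncapg, a subunit of condensin, also rose, with log2 fold changes of 1.95, 1.62 and 1.63. Members that missed the threshold had log2 fold changes of 2.16 for Kif11, the kinesin that pushes the spindle poles apart, 2.00 for Cenpf, 1.80 for Tpx2, 1.73 for Kif20a, 1.55 for Prc1 and 0.97 for Spc25, and adjusted p between 0.0620 for Kif20a and 0.113 for Spc25. Kif11 had 19.3, 25.2, 16.6 and 5.47 in cast libraries, against 8.59, 4.36, 1.98 and 0 in naive libraries.

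Kif23, the kinesin of the midbody at which daughter cells part, was the exception among the 28. It had 9.39, 11.7, 12.0 and 5.60 in cast libraries, against 15.4, 8.71, 5.95 and 8.41 in naive libraries (log2 fold change 0.03 ± 0.32, adjusted p = 0.961). The groups overlapped over most of their range, and with 265 reads in cast and 205 in naive libraries in all, its counts were within the range of those of members that rose. Its sign turned under some alternatives. Prc1, a partner of Kif23 in the central spindle, had 13.3, 15.7, 19.5 and 7.47 in cast libraries, against 11.5, 4.84, 1.65 and 1.94 in naive libraries.

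**Figure D2:**
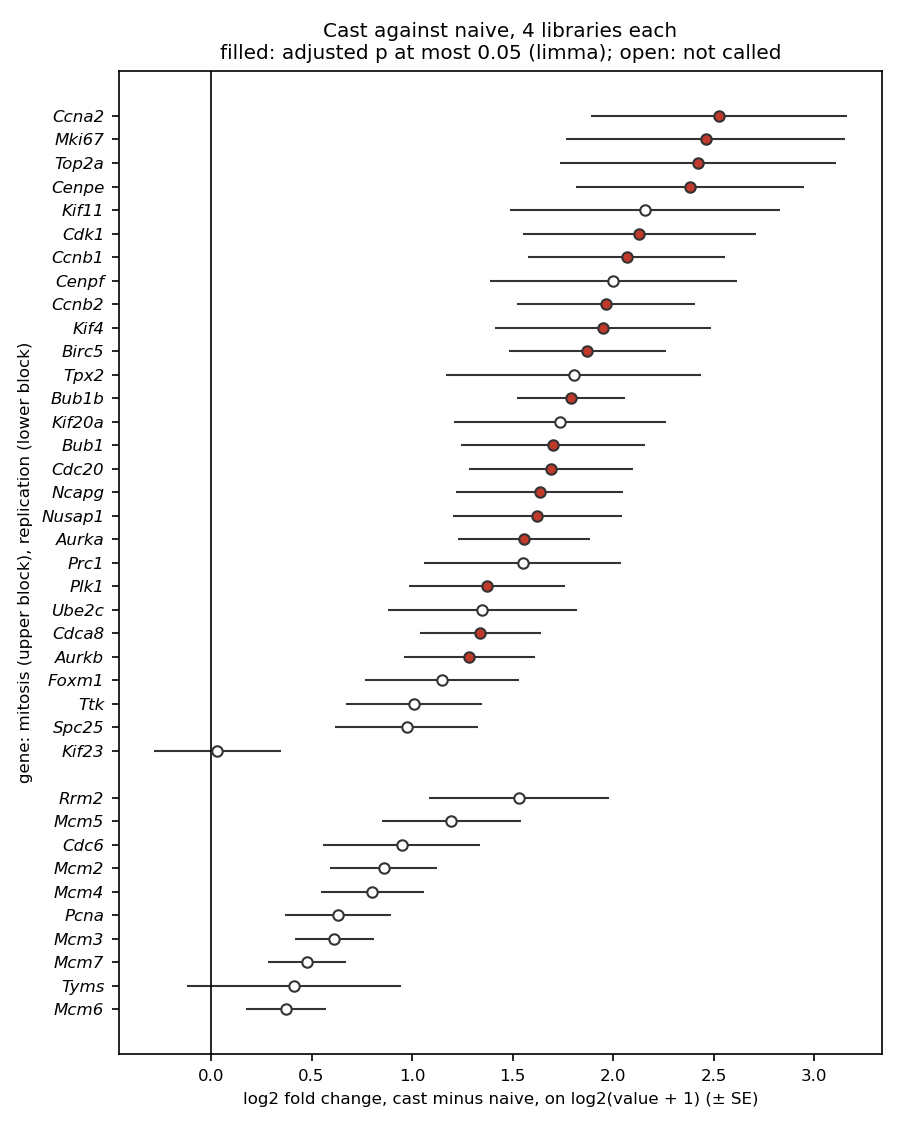
Log2 fold change of each member in cast over naive capsules, from log2(value + 1) (horizontal axis, point ± SE, 4 libraries per group), with mitosis genes in the upper block and replication genes in the lower block. Filled points passed the test (18 mitosis genes, 0 replication genes), and Kif23 at 0.03 lies apart from the other mitosis genes, which lie between 0.97 and 2.53.

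The members moved together from library to library. Cast replicate 4 was the lowest cast library in 28 of 28 mitosis genes, and naive replicate 1 was the highest naive library in 27 of 28. The highest cast library was cast replicate 2 in 16, cast replicate 3 in 10 and cast replicate 1 in 2 genes. Cast replicates 1 to 3 were all above every naive library in 27 of 28, while cast replicate 4 was below naive replicate 1 in 17 of 28. The summed level of the 28 genes was 529, 619, 511 and 206 in cast libraries, against 253, 131, 51.4 and 50.5 in naive libraries. In naive replicate 4, 9 of 28 mitosis genes were at 0, and none of the 28 was at 0 in any other library.

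**Figure D3:**
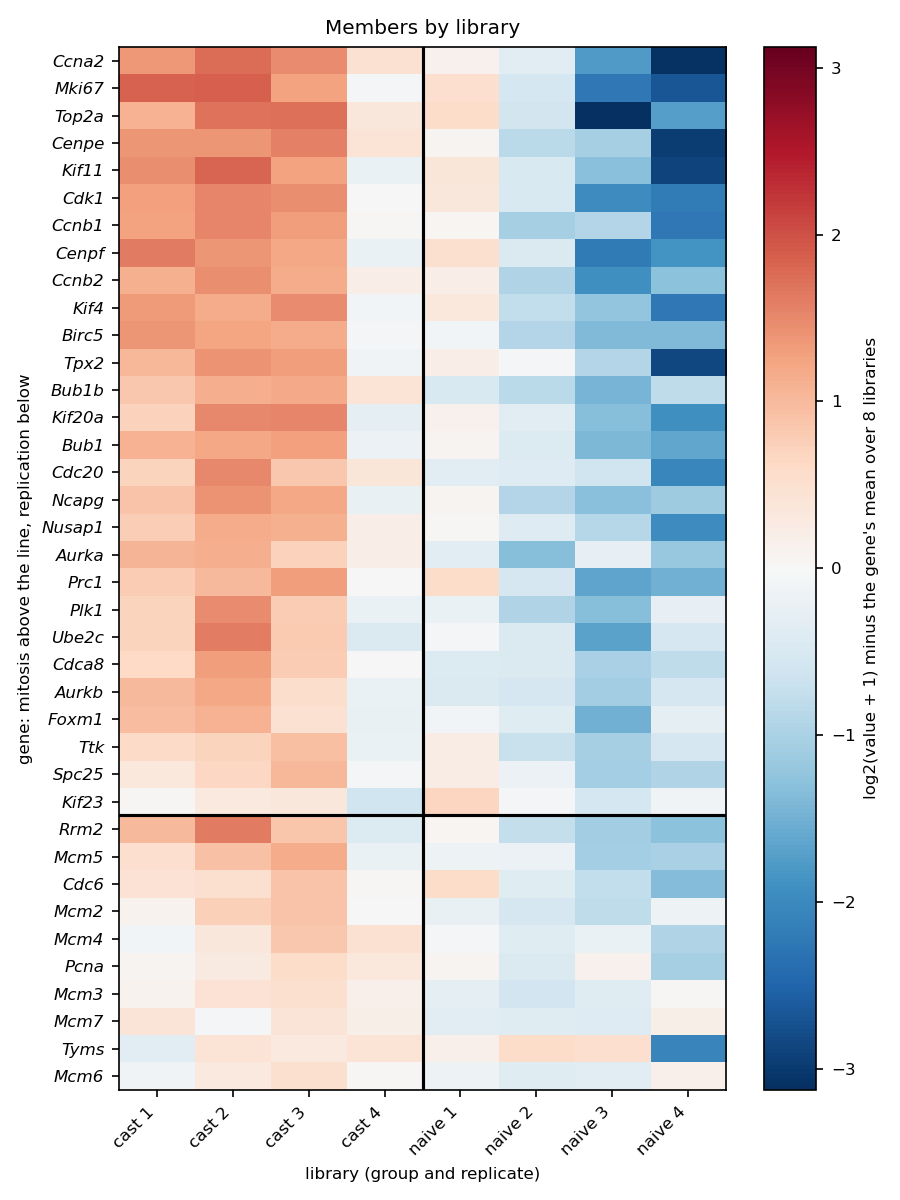
Level of each of the 38 members (rows) in each library (columns, cast left of naive), as log2(value + 1) minus the gene's mean over the 8 libraries. Cast replicates 1 to 3 are red over nearly the whole mitosis block, cast replicate 4 and naive replicate 1 are pale, and naive replicates 3 and 4 are the deepest blue, while the replication block is paler throughout.

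The number of mitosis genes called depended on single libraries. Leaving out cast replicate 1, 2, 3 or 4 gave 4, 3, 2 or 23 genes in that order. Leaving out naive replicate 1, 2, 3 or 4 gave 21, 6, 3 or 14 genes. The count of higher genes over the whole table moved as well, between 510 (3.37% of genes tested) without cast replicate 3 and 1382 (9.12%) without naive replicate 4, against 984. Over these 8 fits the median log2 fold change of the 28 lay between 1.48 and 2.02. Of the 18 genes called, Bub1b and Aurka kept the call whichever library was left out, Birc5 lost it without cast replicate 3, and the other 15 lost it without 3 to 7 of the libraries. On the recovered reads, edgeR's quasi-likelihood test called 13 of the 28, against 7.29% of all genes higher in that fit, and DESeq2 called 24, against 9.68%.

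Summed markers of blood cell precursors, which divide in bone marrow, were also higher in cast libraries. Several single neutrophil markers were so only in cast replicates 1 and 2. The summed level of 10 markers of neutrophil precursors was 1123, 3170, 315 and 192 in cast libraries, against 10.8, 29.8, 5.13 and 34.3 in naive libraries. Of the 10 markers 4 rose, against 6.51% of all genes tested. Chil3, a chitinase-like gene that macrophages also express, made up 258 of the sum in cast replicate 3 and 99.4 of that in cast replicate 4, against 0.301 to 2.58 in naive libraries. Ngp and Ltf, of later precursors, had 22.2 and 22.2 in cast replicate 3 and 48.0 and 27.2 in cast replicate 4, also above every naive library. Camp, another of the 10, had 4.36 and 4.40 in cast replicates 3 and 4, below 4.52 in naive replicate 2. Every cast library was above every naive library in 4 of the 10 markers (Chil3, Ngp, Ltf and Prtn3), against 11.1% of all genes tested. Mpo, myeloperoxidase of early precursors, had 55.0 and 144 in cast replicates 1 and 2 and 0.273 and 0.133 in cast replicates 3 and 4, and Ms4a3, another precursor gene, was at 0 in cast replicates 3 and 4 and in all naive libraries. Elane, Ctsg and Fcnb had 0.136, 0 and 0 in cast replicate 3 and 0.267, 0.267 and 0.133 in cast replicate 4. These values were below the highest naive values of 0.645, 1.94 and 1.29. Of 10 markers of red cell precursors, 9 were in the table and 4 rose, against the same 6.51% of all genes. Their sums were 678, 290, 585 and 203 in cast libraries, against 87.4, 110.2, 89.8 and 94.4 in naive libraries. Alas2 alone had 339, 156, 455 and 98.7 of these in cast libraries. Every cast library was above every naive library in 6 of the 9, against 11.1% of all genes tested. Klf1 had 0.136 and 0 in cast replicates 3 and 4, against 0.151 to 2.59 in naive libraries. Ermap had 0.954 and 0.934 there, below 1.81 to 4.03 in naive libraries. Without cast replicates 1 and 2, the median log2 fold change of the 28 mitosis genes was 1.48. In that fit of 2 cast and 4 naive libraries, 1 of 28, Bub1b, was called (limma, adjusted p = 0.0477), against 2.49% of genes called higher. The 2 cast libraries left differed. The mean log2(value + 1) of the 28 was 3.76 in cast replicate 3 and 2.62 in cast replicate 4, against 2.75 in naive replicate 1. The part of blood cell precursors in these levels was not tested.

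Markers of other cells were mixed in the test. Those of macrophages, endothelium and B cells were not called, most T cell markers rose at low levels, and some fat and muscle markers fell. Over all genes tested 6.51% were higher and 5.46% lower, so 0 called of 8 markers is near the share of all genes. Of 8 macrophage markers 0 were called, with sums of 1732 to 2356 in cast and 1307 to 2907 in naive libraries. Of 8 endothelial markers 0 were called, with sums of 1022 to 1420 in cast and 927 to 1411 in naive libraries. Of 8 T cell markers 7 were in the table, 6 were tested and 4 rose, at low sums of 15.6 to 20.2 in cast and 5.27 to 8.93 in naive libraries. Of 8 fibroblast markers Lum rose and 7 were not called. Of 10 B cell markers 4 were in the table and 0 were called, and of 7 fat markers 2 fell. Skeletal muscle markers summed to 15.0 to 372 in cast and 113 to 2803 in naive libraries, and 6 of 12 fell. The part of these cells in the levels of the mitosis genes was not tested.

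Replication genes did not pass the test. Of 10 members tested, 0 were called in either direction, against 6.51% of all genes tested that were higher and 5.46% that were lower. A count of 0 of 10 is thus near the share of all genes. Adjusted p of the 10 lay between 0.0528 and 0.664 (limma). All 10 had a log2 fold change above 0, against 55.7% of all genes tested. Of the 10, 8 had an unadjusted p under 0.05 (limma), against 4026 of 15120 genes. The median log2 fold change was 0.72 (range 0.37 to 1.53), and the median ratio of means 1.66 (range 1.11 to 3.499). Every cast library was above every naive library in 2 of 10, Mcm2 and Mcm3, against 11.1% of all genes tested. On the recovered reads edgeR called 4 higher (Rrm2, Mcm2, Mcm3 and Mcm5), against 7.29% of all genes, and DESeq2 called these and Mcm4, against 9.68%. Without naive replicate 4, the shallow library, limma called 3 (Mcm2, Mcm3 and Mcm7), against 9.12%.

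Among the subunits of the helicase ring, Mcm5 (chromosome 8, 75109569 to 75128439, plus strand) had 16.8, 22.5, 26.5 and 9.74 in cast libraries, against 10.1, 10.002, 4.96 and 5.17 in naive libraries (log2 fold change 1.19 ± 0.35, adjusted p = 0.0528). Mcm2 had 14.2, 22.6, 25.4 and 12.9 in cast libraries, against 10.9999, 8.87, 7.11 and 11.6 in naive libraries (log2 fold change 0.86 ± 0.27, adjusted p = 0.0654). Mcm3 had 24.6, 31.0, 32.3 and 25.2 in cast libraries, against 18.2, 14.5, 17.0 and 23.3 in naive libraries (log2 fold change 0.61 ± 0.20, adjusted p = 0.0734). Both Mcm2 and Mcm3 were separate between groups by small margins. Mcm4 had a log2 fold change of 0.80 ± 0.26, Mcm7 of 0.48 ± 0.19 and Mcm6 of 0.37 ± 0.20, so the 6 subunits, which the ring holds in equal number, differed in the size of their fitted change, although the differences between them were not tested.

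Rrm2, the subunit of ribonucleotide reductase that limits the supply of DNA building blocks, had the highest fold change of the replication genes. It had 16.6, 26.1, 15.0 and 5.47 in cast libraries, against 8.14, 4.19, 3.14 and 2.59 in naive libraries (log2 fold change 1.53 ± 0.45, adjusted p = 0.0542). Its order of libraries resembled that of the mitosis genes, with cast replicate 4 below naive replicate 1. Cdc6, the loader of the helicase, averaged 4.97 ± 1.43 in cast and 2.42 ± 2.02 in naive libraries (adjusted p = 0.155). Pcna averaged 54.8 ± 7.79 in cast and 36.5 ± 12.7 in naive libraries (adjusted p = 0.161). Tyms, thymidylate synthase, had 139.9, 239, 217 and 238 in cast libraries, against 196, 263, 253 and 41.4 in naive libraries (log2 fold change 0.41 ± 0.53, adjusted p = 0.664), and without naive replicate 4 its log2 fold change was -0.21.

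Per kilobase of exon, several replication genes lay above most mitosis genes. Tyms had 34.2 normalised read counts per kilobase in cast and 30.9 in naive libraries, Pcna 22.8 in cast and 15.2 in naive, and Mcm4 11.3 in cast and 6.36 in naive. Of the mitosis genes, Mki67 had 14.5 in cast and 3.36 in naive libraries, and Ccnb2 6.91 in cast and 1.49 in naive. Ttk was the lowest on this scale, at 0.513 in cast and 0.158 in naive libraries. Tyms has a pseudogene in the table (Tyms-ps), so its reads may be split between them.

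As a mean over genes of log2(value + 1), the mitosis genes stood at 3.64, 3.94, 3.76 and 2.62 in cast libraries, against 2.75, 2.06, 1.28 and 1.09 in naive libraries, and the groups overlapped through cast replicate 4. The replication genes stood at 4.72, 5.06, 5.20 and 4.604 in cast libraries, against 4.47, 4.16, 4.06 and 3.76 in naive libraries, without overlap. The mitosis mean minus the replication mean was -1.09, -1.12, -1.44 and -1.98 in cast libraries, against -1.72, -2.11, -2.79 and -2.67 in naive libraries. Cast replicate 4 had the lowest mean of the cast libraries in both sets. Its replication mean lay between those of cast replicate 1 and naive replicate 1, and its mitosis mean was below that of naive replicate 1. Since the members were chosen with results known, no test was made over these means.

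**Figure D4:**
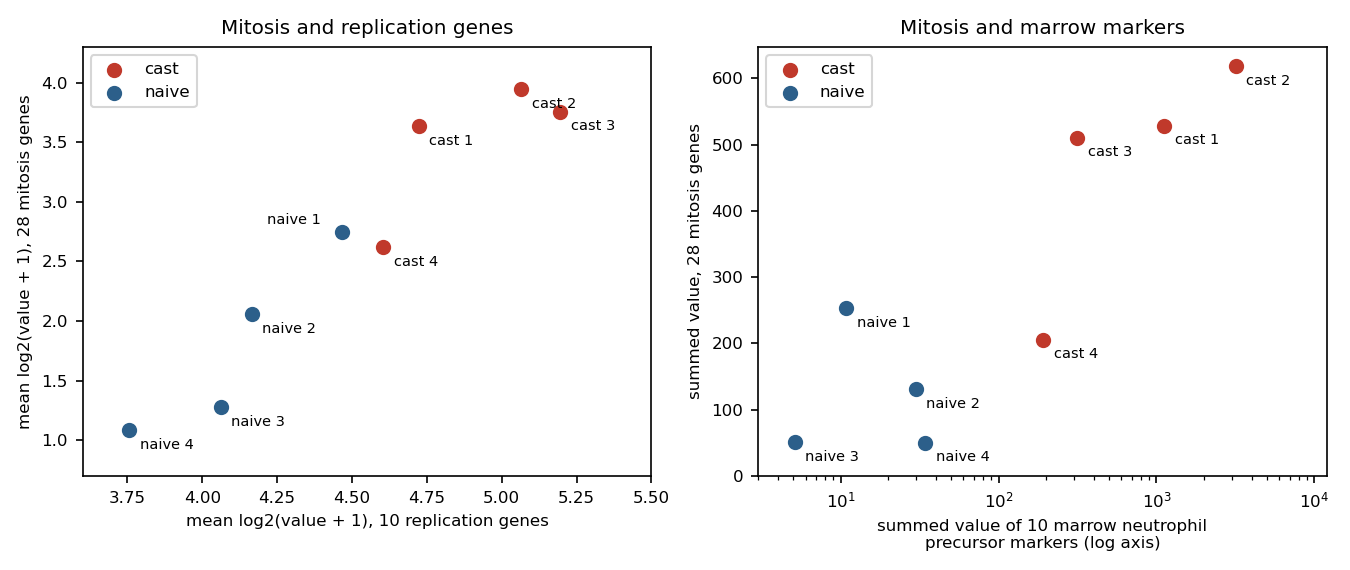
Left, mean log2(value + 1) of the 28 mitosis genes (vertical axis) against that of the 10 replication genes (horizontal axis), 1 point per library. Right, summed value of the 28 mitosis genes (vertical axis) against the summed value of 10 marrow neutrophil precursor markers (horizontal axis, log scale), where cast replicate 3 has a mitosis sum of 511 at a marker sum of 315, of which Chil3 is 258, and cast replicate 2 has 619 at 3170.

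Further genes of both processes, outside the 38, were read from lists of known genes. Of 40 other mitosis genes, 38 were in the table, and 12 rose, 0 fell and 26 did not pass, against 6.51% of all genes higher and 5.46% lower, with a median log2 fold change of 1.09. Kif15, a spindle kinesin, averaged 10.3 ± 3.53 in cast and 2.04 ± 1.20 in naive libraries (adjusted p = 0.00803). Cdca5, sororin, which holds sister chromatids together, averaged 2.96 ± 0.781 in cast and 0.420 ± 0.643 in naive libraries (adjusted p = 0.0139), and Kif2c, which removes tubulin at the kinetochore, averaged 6.53 ± 2.36 in cast and 1.44 ± 1.10 in naive libraries (adjusted p = 0.0151). Kif15 and Cdca5 kept the call whichever library was left out, and Kif2c lost it without cast replicate 3.

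Of 43 other replication genes, all in the table, 14 rose, 0 fell and 29 did not pass, against the same shares of all genes, with a median log2 fold change of 0.85. Timeless, a protein of the replication fork, had 15.7, 20.4, 24.0 and 20.9 in cast libraries, against 8.74, 6.61, 6.12 and 9.70 in naive libraries (log2 fold change 1.28 ± 0.22, adjusted p = 0.00611). Its groups did not overlap, cast replicate 4 was among the high libraries, and it passed in all 20 alternatives. Dbf4, the activator of the kinase that fires origins, had 13.8, 11.2, 9.82 and 9.60 in cast libraries, against 4.22, 4.52, 2.81 and 0.647 in naive libraries (log2 fold change 1.71 ± 0.37, adjusted p = 0.0175). Chaf1b, a subunit of the chromatin assembly factor, averaged 6.80 ± 1.18 in cast and 2.25 ± 1.09 in naive libraries (adjusted p = 0.0161).

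Around the loading of the helicase, Cdt1, which loads it with Cdc6, averaged 7.90 ± 2.59 in cast and 2.89 ± 0.898 in naive libraries (adjusted p = 0.0255), and Gmnn, geminin, the inhibitor of Cdt1, averaged 3.61 ± 1.24 in cast and 1.28 ± 1.27 in naive libraries without passing (adjusted p = 0.0985). Tk1, thymidine kinase of S phase, averaged 10.6 ± 4.38 in cast and 3.73 ± 1.20 in naive libraries (adjusted p = 0.0290). The calls of Cdt1 and Tk1 were each lost without 5 of the 8 libraries, among them cast replicates 2 and 3.

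Of 19 genes that drive the step from G1 into S phase, 1 rose, 1 fell and 17 did not pass, which is near the 6.51% higher and 5.46% lower among all genes. Their median log2 fold change was 0.46, with 15 of 19 above 0, against 55.7% of all genes tested. An unadjusted p under 0.05 (limma) was found in 7 of 19, near the share of all genes (4026 of 15120). Ccne1, cyclin E1, which starts S phase, had 2.97, 4.80, 4.09 and 2.00 in cast libraries, against 1.51, 1.45, 0.661 and 0.647 in naive libraries (log2 fold change 1.10 ± 0.28, adjusted p = 0.0326). Its call was lost without cast replicate 1, 2 or 3 or naive replicate 2 or 3. Ccnd2, cyclin D2, which answers growth signals in G1, fell to 101, 202, 193 and 169 in cast libraries, against 349, 361, 343 and 265 in naive libraries (log2 fold change -1.02 ± 0.24, adjusted p = 0.0234). The cyclin D2 groups did not overlap, and its call was lost without naive replicate 1, 2 or 3. Ccnd1, cyclin D1, averaged 53.6 ± 26.0 in cast and 79.7 ± 12.4 in naive libraries (adjusted p = 0.219), and Ccne2 and E2f1 had adjusted p of 0.343 and 0.690.

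Some E2F and Myb factors differed widely among the cast libraries. E2f2, an activator E2F, had 76.1, 48.4, 20.0 and 6.80 in cast libraries, against 3.32, 5.97, 1.98 and 10.996 in naive libraries (log2 fold change 2.30 ± 0.69, adjusted p = 0.0592). E2f8, a repressor E2F, had 14.5, 18.6, 4.50 and 1.33 in cast libraries, against 2.71, 1.94, 0.661 and 0.647 in naive libraries (adjusted p = 0.106), and Mybl2, B-Myb of the MuvB complex, had 13.0, 8.39, 5.32 and 2.00 in cast libraries, against 1.05, 1.61, 1.82 and 3.88 in naive libraries (adjusted p = 0.112). In each of these 3 genes cast replicates 1 and 2 were the highest of the 8 libraries.

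Of 21 inhibitors of the cell cycle, 3 rose, 2 fell and 16 did not pass, with a median log2 fold change of 0.14, against 6.51% higher and 5.46% lower among all genes. Cdkn1c, the inhibitor p57 of resting cells, had 47.5, 49.3, 38.0 and 47.6 in cast libraries, against 13.4, 10.6, 18.8 and 16.2 in naive libraries (log2 fold change 1.58 ± 0.20, adjusted p = 0.00180). Btg1, an antiproliferative gene of quiescent cells, had 252, 231, 296 and 287 in cast libraries, against 148, 124, 135 and 105 in naive libraries (log2 fold change 1.06 ± 0.17, adjusted p = 0.00465). Cdkn2d, the Cdk4 and Cdk6 inhibitor p19, averaged 20.3 ± 4.69 in cast and 8.94 ± 1.21 in naive libraries (adjusted p = 0.0105). Every cast library was above every naive library in 4 of the 21 inhibitors, against 11.1% of all genes tested. These 3 genes are among the 4 and were named for the smallest p of the list, so they do not stand for it. Cast replicate 4 was within the range of the other cast libraries in these 3.

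Cdkn1a, the inhibitor p21 that p53 induces, fell to 68.6, 14.5, 24.0 and 28.8 in cast libraries, against 87.5, 75.3, 64.6 and 121.6 in naive libraries (log2 fold change -1.52 ± 0.41, adjusted p = 0.0399). Cast replicate 1 was above naive replicate 3, so the groups overlapped, and the call was lost in 7 of the 8 fits without 1 library, all but that without cast replicate 1. Cdkn1b, the inhibitor p27, averaged 65.2 ± 5.76 in cast and 57.3 ± 7.24 in naive libraries (log2 fold change 0.19 ± 0.16, adjusted p = 0.492). Wee1, the kinase that holds Cdk1 inactive, was the other inhibitor that fell (log2 fold change -1.08, adjusted p = 0.0424) and was chosen after its values were seen.

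**Figure D5:**
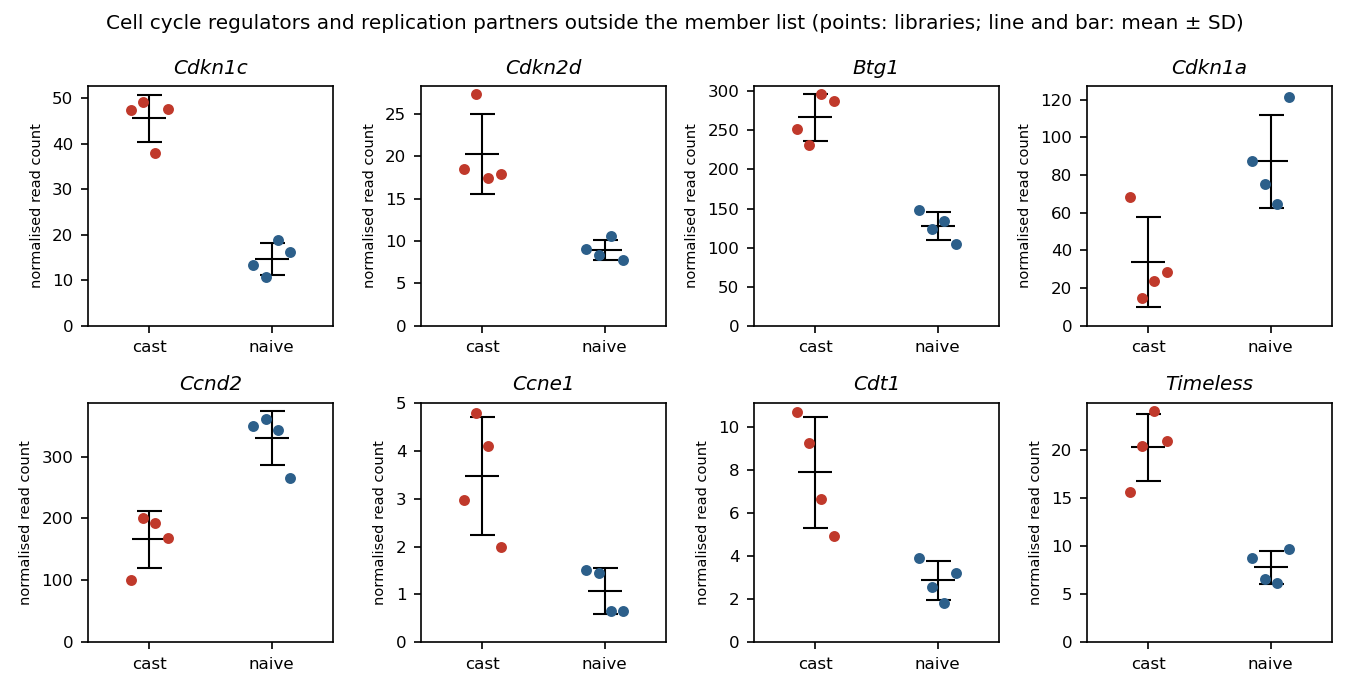
Normalised read counts (vertical axes) of 8 genes outside the 38, cast left of naive, 1 point per library, with mean ± SD (n = 4 each). Cdkn1c, Cdkn2d, Btg1, Ccne1, Cdt1 and Timeless are higher in every cast library than in any naive library, Ccnd2 is lower in every cast library, and Cdkn1a overlaps through cast replicate 1.

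Some members overlap a neighbour on the other strand in GENCODE M21, by the start and end of the genes. The sources used here do not give whether strand was used in counting. Ube2c overlaps Tnnc2, a muscle gene that was at 0.273 to 5.27 in cast and 1.29 to 90.3 in naive libraries. Cdc20 overlaps Elovl1, Ccna2 overlaps Exosc9, Nusap1 overlaps Oip5, Prc1 overlaps Rccd1, Ncapg overlaps Lcorl, Kif4 overlaps Pdzd11, Cdca8 overlaps 9930104L06Rik, Kif20a overlaps Cdc23, and Mcm7 overlaps Cops6 and Ap4m1. Foxm1 overlaps Tex52 on its own strand. Overlap of exons was not measured, so how far the values of these members are uncertain is not known.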

How the data were processed

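The authors deposited 1 table of normalised read counts for 16464 genes in 8 libraries, a signal value per gene. Per the labels' protocols, ribosomal RNA was depleted from 200 ng of RNA, and strand-marking libraries were read as pairs of 150 nt. The protocol names Trimmomatic 0.38, Bowtie2 within RSEM and the human build hg38, whereas the mouse build mm10, edgeR, RSEM, Bowtie2 and Trimmomatic 0.36 stand in the submitters' processing notes. The symbols are those of mouse genes. The sources used here do not give other versions, the annotation or use of strand in counting.

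From these values, whole reads were recovered: each value divided by the worth of 1 read was whole within 0.01 for 100% of values. No listed gene had under 8 reads in all. Symbols were matched to GENCODE M21 (GRCm38), which gave coordinates for 15796 genes (95.9%). Levels per kilobase use the union of exons.

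Values were taken to log2 after adding 1, 15120 genes passed a minimum mean of 0.5, and groups were compared with limma-trend 3.58.1 in R 4.3.3, adjusted by Benjamini-Hochberg at 0.05 over all genes tested. Alternatives were a pseudocount of 0.5 or 5, a minimum mean of 2.5 or none, median-of-ratios scaling, quantile normalisation, scaling that leaves out muscle, erythroid and marrow genes, edgeR 4.0.16 and DESeq2 1.42.0 on recovered reads, a replicate block, single libraries left out, cast replicates 1 and 2 left out, and both replicates 4 left out. The fit was tested on simulated data. The members, lists and tests were chosen with earlier results of these data known. Named genes are all 38 members, the 3 genes with the smallest p of each further list and 11 panel genes, and other genes are said to be chosen after their values were seen or are markers or overlapping neighbours. Motifs were searched in RefSeq promoters (GRCm38.p6). Tables and plots were made with matplotlib 3.10.9, numpy 2.4.6, pandas 2.3.3 and Python 3.11.15.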

Additional observations from a re-analysis of the deposited data

Results flagged for a closer look

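In 4 of 124 groups of 4 libraries tested, 1 library stood apart from the others by a Dixon test, where chance gives about 1 in 20. Aurkb had 0.992 in naive replicate 3, below 1.94 to 2.11 in the other naive libraries. Mcm7 had 34.3 in naive replicate 4, the shallow library, above 22.5 to 23.5 in the other naive libraries. Cdkn1c had 38.0 in cast replicate 3, below 47.5 to 49.3 in the other cast libraries, and above all naive libraries. Cdkn2d had 27.3 in cast replicate 2, above 17.5 to 18.5 in the other cast libraries.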

How the results depend on the processing

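Of 1195 values of named genes under single alternatives, 952 kept direction and side of the threshold, 163 lost the call, 70 gained it and 10 changed sign. Changes of sign were in Kif23 (log2 fold change -0.1219 with quantile normalisation, -0.0064 with edgeR, -0.0127 with DESeq2, -0.1245 without cast replicates 1 and 2, and -0.149 to 0.2628 leaving out 1 library) and Tyms (-0.2813 without both replicates 4, and -0.2071 to 0.6733 leaving out 1 library). All genes changed numbered 1810, against 2754 with DESeq2, 717 without cast replicates 1 and 2, and 916 to 2665 leaving out 1 library. Mitosis members higher numbered 18, against 1 without cast replicates 1 and 2 and 2 to 23 leaving out 1 library. Replication members higher numbered 0, against 1 with a pseudocount of 5, 2 with scaling that leaves out muscle, erythroid and marrow genes, 4 with edgeR, 5 with DESeq2, 5 without both replicates 4, and 0 to 3 leaving out 1 library. Other mitosis genes higher numbered 12, against 7 with quantile normalisation, 0 without cast replicates 1 and 2, 25 without both replicates 4, and 3 to 16 leaving out 1 library. Other replication genes higher numbered 14, against 7 with quantile normalisation, 1 without cast replicates 1 and 2, and 2 to 17 leaving out 1 library. The cause of these moves was not tested, beyond fewer libraries in the fits that leave some out. With the replicate block, counts were 1371 over all genes, 20 mitosis and 1 replication member, 10 other mitosis and 8 other replication genes. Same-numbered libraries correlated at 0.080, 0.035, -0.057 and -0.021 in their deviations. These deviations also hold each library's own spread, so they cannot show whether the numbers pair the libraries. Quantile normalisation moved the median of all genes to a log2 fold change of -0.03 and that other scaling to 0.09, against 0.07. Depth limits low genes most in naive replicate 4, where 3 reads are worth 1.94.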
